A study of Canis lupus familiaris with 28 samples.

Results

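*MYC* encodes a transcription factor that drives growth and division in many cell types, and it is followed here together with genes that lie near it on the chromosome. The members are *MYC*, *ATAD2*, *TRIB1*, *DERL1*, *DSCC1*, *RAD21*, *TATDN1*, *FBXO32* and *ASAP1*, which lie in human bands 8q23-24. They were taken by symbol, and each had to be paired with an Ensembl identifier in the study's supplementary tables. Of the 10 symbols considered, *NSMCE2* was not paired and was left out, so 9 genes of the 32704 counted identifiers were followed. All 9 are assigned to chromosome 13 in the dog RefSeq table (assembly UU_Cfam_GSD_1.0), in the order *RAD21*, *DSCC1*, *DERL1*, *ATAD2*, *FBXO32*, *TATDN1*, *TRIB1*, *MYC* and *ASAP1*. Between *MYC* and its nearest members, *TRIB1* lies 3 protein-coding genes away on one side and *ASAP1* 4 on the other, and *RAD21* is the farthest, at 46. The counts were made on CanFam3.1, so no coordinates are given.

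MYC protein binds DNA with its partner MAX and raises the output of genes for ribosomes, nucleotides and metabolism, and its own RNA and protein are short-lived. The stretch of chromosome around it is often gained as a block in human cancers, and its genes are then present in extra copies together. DNA copy number is not analysed here, and all values below are RNA.

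RNA was measured in 18 tumors of Bernese Mountain Dogs (BMDs), 15 labelled Histiocytic Sarcoma (HS) and 3 labelled Hemophagocytic Histiocytic Sarcoma (HHS). HS is a cancer of macrophage and dendritic cell lineage. The 6 controls, labelled normal, were 3 blood samples of BMDs and a liver, a lung and a spleen of German Shepherd Dogs, 1 library each. The liver is set beside the other 5 but kept out of tests, and the study also left it out. A separate count table held the HS cell lines BD and OD, from BMDs, and PJ, from a Rottweiler, with DC3F9, a dendritic cell strain that was derived from a mongrel's blood monocytes under GM-CSF and IL-4. No treatment separates the groups and the labels give no ages. Tumor pieces hold other cells beside the tumor cells, each cell line stems from 1 dog, and each solid organ control is 1 library of another breed than the tumors.

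Tumor libraries held 99701394 to 171815073 counts, controls 133524755 to 180801439 and cell libraries 82007857 to 131518875. Levels are given as CPM, a gene's counts scaled to its library's raw total. The blood controls ran on another flow cell than all other tissue libraries, so flow cell, breed and tissue cannot be told apart among controls. Scaling factors by the trimmed mean of M-values (TMM), which adjust for what fills a library, lay between 0.777 and 1.28 in tumors. They were lowest in MSU HS 14, MSU HS 27, MSU HS 29 and MSU HS 36, at 0.777 to 0.859, and highest in MSU HS 51. MSU HS 29 was among the 3 lowest tumors for 39.1% of all genes, MSU HS 27 for 35.7% and MSU HS 14 for 34.3%. The summed CPM of 7 myeloid and antigen presenting markers was 2312 to 26439 in tumors and 14456 to 18526 in blood, that of 6 lymphocyte markers 2.23 to 217 and 521 to 983, and that of 4 stromal markers 30.9 to 733 and 0.495 to 1.38. Spleen and lung were at 8814 and 2268 for the myeloid and antigen presenting markers and at 223 and 25.8 for the lymphocyte markers. For the stromal markers they were at 89.1 and 322, inside the tumor range. None of these markers was at 0 in all tumors. In bulk tissue, fewer cells of a type and less RNA per cell cannot be told apart.

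*MYC* (ENSCAFG00000001086) spanned a 6.37-fold range among tumors. Its level was 23.5 CPM in the lowest tumor, MSU HS 34, with a median of 60.7 CPM, and 150.1 CPM in the highest, MSU HS 51. The blood controls were at 76.7, 86.5 and 126 CPM in libraries 35779, 35780 and 35116, the spleen at 58.5 CPM and the lung at 18.5 CPM. Tumors and controls overlapped, since 2 tumors, MSU HS 51 and MSU HS 35, were above all 5 controls and 0 were below all of them. Of the 18 tumors, 12 were below every blood control and 9 were above both the spleen and the lung. The liver control was far lower on raw totals, at 3.40 CPM. Its TMM factor was 0.342, beside 0.973 to 1.30 in the other 5 controls, so its raw CPM is not directly comparable with theirs.

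Set against the 5 controls, the *MYC* log2FC of -0.03 ± 0.35 (standard error, 18 tumors and 5 controls) was near 0 and hides a split between control tissues. The log2FC was -0.45 ± 0.36 against blood and 1.02 ± 0.55 against spleen and lung, and edgeR's quasi-likelihood test gave adjusted p = 0.336 and adjusted p = 0.265. A log2FC is the TMM-normalized difference in log2 counts. The study's cutoffs define a call here: the adjusted p had to be under 0.0005 and the log2FC beyond 1.5 in either direction.

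Of the genes that act on chromosomes, *ATAD2* (ENSCAFG00000000992) encodes an ATPase with a bromodomain that binds acetylated histones. It was at 26.5 CPM in the lowest tumor, MSU HS 29, had a median of 70.8 CPM and reached 197 CPM in MSU HS 53. Controls were at 30.2, 43.8 and 58.6 CPM in blood, 50.4 CPM in spleen and 35.5 CPM in lung. Although 15 of 18 tumors were above all 5 controls, the ranges overlapped, because MSU HS 29 and MSU HS 27 lay below all of them. The log2FC was 1.11 ± 0.32 with an edgeR adjusted p of 0.0134, which is under the fold and over the p cutoff.

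*DSCC1* (ENSCAFG00000000882), a subunit of a clamp loader that acts in sister chromatid cohesion during replication, had the largest log2FC of the members. Its tumors ranged from 2.26 CPM in MSU HS 29 over a median of 17.2 CPM to 24.3 CPM in MSU HS 33. The blood controls were at 1.70, 5.41 and 6.78 CPM, the spleen at 7.81 CPM and the lung at 5.57 CPM. Again 15 of 18 tumors exceeded every control and 0 fell below them all. The log2FC was 1.68 ± 0.40 and the adjusted p of 0.00368 did not pass 0.0005 in edgeR. DESeq2 called it (log2FC 1.61, adjusted p = 5.9e-05). Its adjusted p lay between 5.9e-05 and 0.137 in the 16 alternatives.

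*RAD21* (ENSCAFG00000000822) encodes the cohesin subunit that closes the ring around sister chromatids. Its tumors ran from 86.5 CPM in MSU HS 29 over a median of 273 CPM to 482 CPM in MSU HS 35, while the 5 controls stayed between 267 and 365 CPM. Tumors lay on both sides of this narrow range, 4 above it and 8 below it. The log2FC was -0.03 ± 0.25 (edgeR adjusted p = 0.947), and the spread on the log2(CPM + 1) scale was 0.62 (SD, n = 18) in tumors against 0.16 (SD, n = 5) in controls.

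*TATDN1* (ENSCAFG00000001044) encodes a protein with the domain of TatD nucleases. The lowest tumor, MSU HS 34, was at 6.93 CPM, the median was 26.1 CPM, and the highest, MSU HS 51, was at 61.5 CPM. Blood was at 7.21, 8.83 and 12.9 CPM, below 16 of 18 tumors, whereas the spleen at 25.4 CPM and the lung at 17.9 CPM lay within the tumor range. Its log2FC was 1.01 ± 0.37 (edgeR adjusted p = 0.0472), 1.45 ± 0.47 against blood and 0.50 ± 0.53 against spleen and lung.

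Among members that act in protein turnover, *DERL1* (ENSCAFG00000000974) encodes a membrane protein that moves misfolded proteins out of the endoplasmic reticulum. Its tumor levels varied least of the 9 members, from 100.1 CPM in MSU HS 29 over a median of 164 CPM to 270.1 CPM in MSU HS 14. All 5 controls lay between 107 and 149 CPM, and 10 of 18 tumors were above them and 3 below. The log2FC was 0.58 ± 0.26 with an edgeR adjusted p of 0.101.

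*FBXO32* (ENSCAFG00000001007), the F-box substrate adaptor of a ubiquitin ligase best known from wasting muscle, ranged from 2.56 CPM in MSU HS 34 over a median of 5.94 CPM to 21.5 CPM in MSU HS 53. Blood was at 1.94, 3.43 and 4.06 CPM, spleen at 7.35 CPM and lung at 5.84 CPM. Tumors exceeded all controls in 7 cases. The log2FC was 1.13 ± 0.52 (edgeR adjusted p = 0.108).

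*TRIB1* (ENSCAFG00000001077) encodes a pseudokinase that guides the COP1 ubiquitin ligase to its targets, among them a transcription factor of myeloid cells. It varied 11.8-fold among tumors, the widest span of the 9 members, from 28.6 CPM in MSU HS 33 over a median of 98.6 CPM to 337 CPM in MSU HS 51. The blood controls were at 73.6, 135 and 137 CPM and the spleen and lung at 49.0 and 37.2 CPM. Against the solid organs 17 of 18 tumors were higher, and against blood 7 were higher and 5 lower than every library. The log2FC was 0.66 ± 0.48 (edgeR adjusted p = 0.311), 0.21 ± 0.54 against blood and 1.85 ± 0.76 against spleen and lung.

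*ASAP1* (ENSCAFG00000001096) encodes a GTPase-activating protein for ARF proteins that links membrane traffic to the actin cytoskeleton. It was at 30.2 CPM in MSU HS 36, had a median of 78.4 CPM and reached 158 CPM in MSU HS 52. The blood controls were at 129.9, 169.5 and 175 CPM, and 14 of 18 tumors lay below all 3 of them. Spleen and lung, at 107 and 56.7 CPM, lay within the tumor range. The log2FC was -0.50 ± 0.32 (edgeR adjusted p = 0.250) and turned to 0.29 ± 0.47 against spleen and lung.

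**Figure D1:**
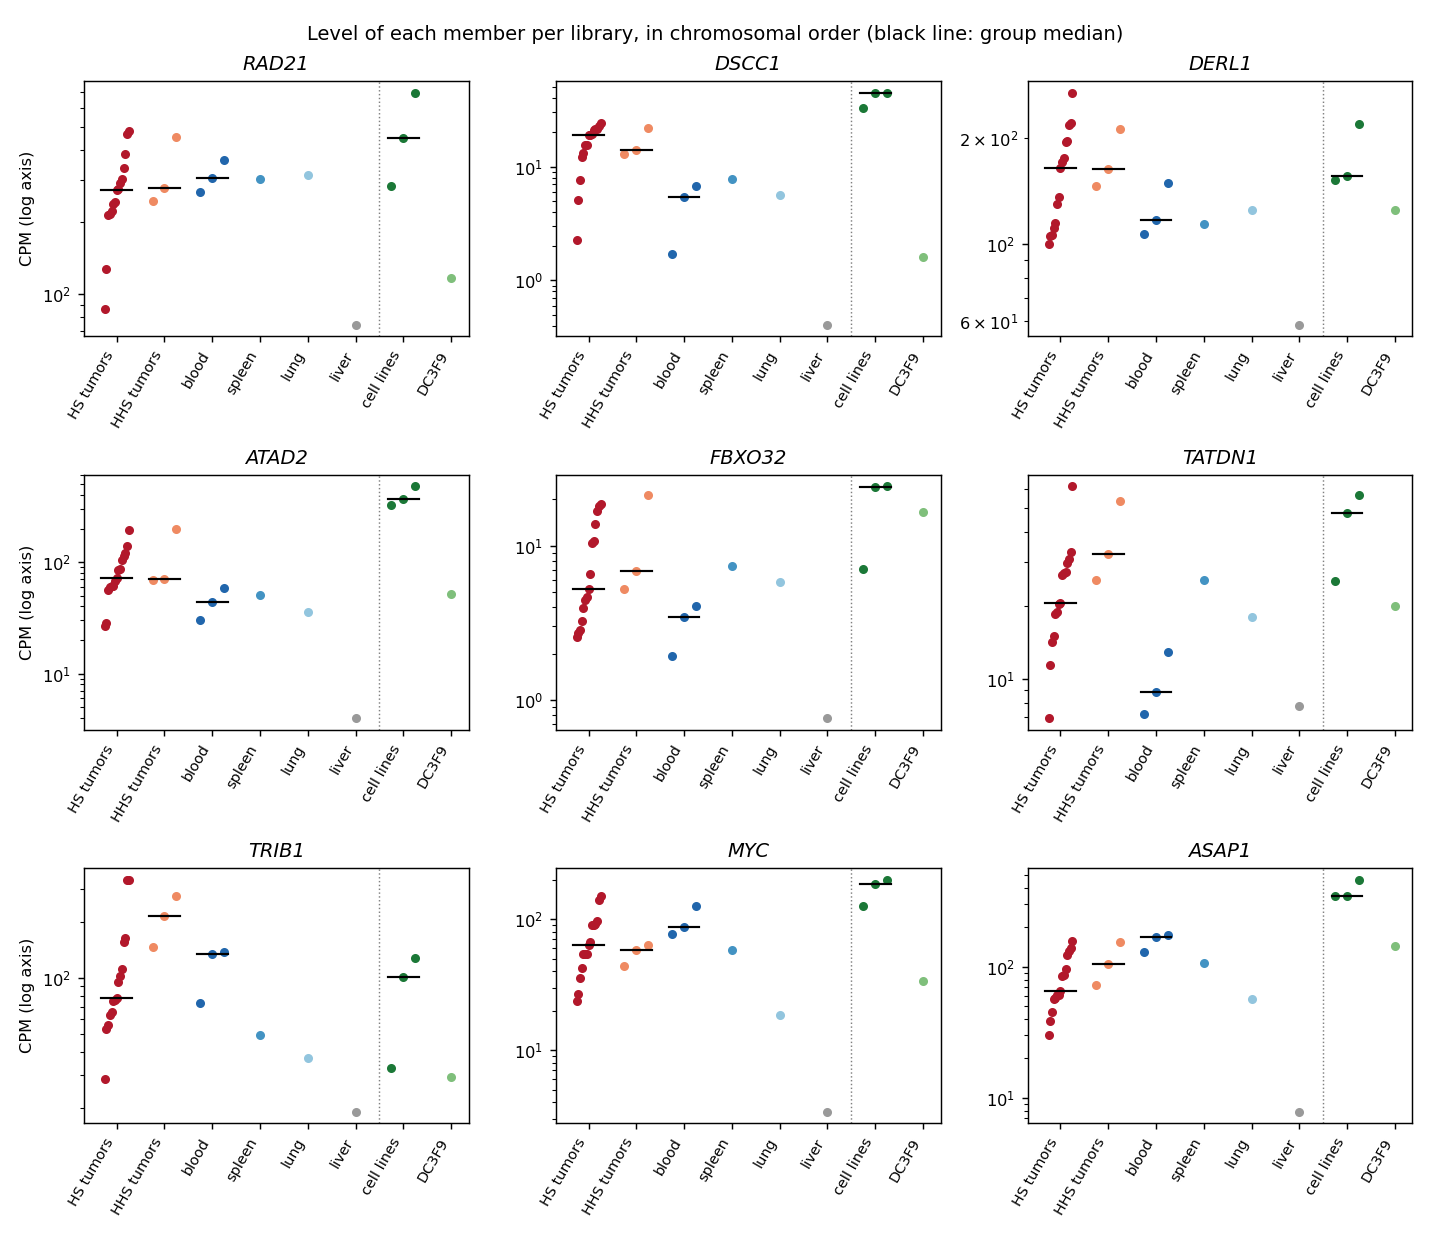
Each panel plots the CPM of 1 member (log axis) in each library of the 15 HS tumors, 3 HHS tumors, 3 blood controls, the spleen, lung and liver controls, the 3 cell lines and DC3F9, with black lines at group medians and a dotted line between the separately counted tables. Tumors of *ATAD2* and *DSCC1* lie mostly above the controls, tumors of *MYC* and *ASAP1* mostly below blood, and the liver control is lowest of the 6 controls in 8 of the 9 panels. Levels are raw CPM, and the TMM factor of the liver library was 0.342.

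At the study's cutoffs 0 of the 9 members were called by edgeR in tumors against controls, where 2.77% of the 19430 tested genes were called, 0.865% higher and 1.91% lower. DESeq2 called 1 member, *DSCC1*, and 8.86% of all genes. An unadjusted p under 0.05 was found for 5 members, *DSCC1*, *ATAD2*, *TATDN1*, *DERL1* and *FBXO32*, all with a positive log2FC, beside 39.7% of all tested genes. In 0 of 9 members did tumors and controls separate without overlap, beside 1.16% of genes with all tumors higher and 1.07% with all lower. The median log2FC of the members was 0.66, that of all tested genes -0.01. Against spleen and lung alone all 9 had a positive log2FC with a median of 0.73, beside 0.08 for all genes, and against blood alone 6 did, with a median of 0.48 beside 0.44. The lymphocyte markers, at 25.8 to 983 CPM in the controls, moved with the choice of control, and their part in these values was not tested.

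The same fit over other genes of the region gave a mixed picture. Of 106 further named genes of human 8q23-24 that the study's tables pair with an identifier, 93 were tested, and 2 rose and 2 fell in the tumors, beside 0.865% and 1.91% of all genes. The genes that rose were *RECQL4* (log2FC 2.73 ± 0.48, edgeR adjusted p = 2.9e-04), a DNA helicase, and *MRPL13* (2.06 ± 0.35), of the mitochondrial ribosome. *TMEM71* (-3.03 ± 0.53) and *DENND3* (-2.67 ± 0.40), an activator of a RAB protein, fell, and *MRPL13* and *DENND3* were picked out after their values were seen. The other ends of the list were *ADGRB1*, an adhesion receptor, at 2.34 ± 1.57 and *ANGPT1*, a vessel growth factor, at -3.58 ± 0.75, neither called. Against spleen and lung alone none of the 4 calls held, with log2FC values of 2.59, 1.41, -0.23 and -0.72 in the order named above, and *ANGPT1* was at 1.26 against blood alone. Few genes were called higher with spleen and lung alone, 7 of 21533, and 215 were called lower. With blood, spleen and lung together these numbers were 168 and 371 of 19430. The log2FC of *RECQL4* changed little between these settings, from 2.73 to 2.59. The calls of *MRPL13* and *TMEM71* were also lost without any 1 of the 3 blood controls, that of *DENND3* without 35779, and that of *RECQL4* without 35779, 35780, the spleen or the lung, at log2FC values of 1.80 to 2.005, -2.97 to -2.54, -2.18 and 2.49 to 2.80. Of all genes, 50 to 158 were called higher and 172 to 427 lower when 1 control was left out. The median of the 93 genes was 0.14.

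Among 16 growth genes that are described as MYC targets elsewhere in the genome, 0 were called and 12 had a positive log2FC at an unadjusted p under 0.05, beside 39.7% of all genes in either direction. Their median log2FC was 0.81. The highest were *METTL1*, a tRNA methyltransferase, at 2.71 ± 0.58 and *SHMT2*, of mitochondrial one-carbon metabolism, at 2.06 ± 0.43, and the lowest were *SRPK1*, a kinase of splicing factors, at -0.41 ± 0.24 and *XRCC6*, of DNA end joining, at 0.01 ± 0.21.

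Of 6 identifiers listed as genes that act on or with MYC, 0 were called, 2 had a positive log2FC and the median was -0.17. For 2 of them the names conflict, since the identifiers paired with *EP300* and *PPP2CA* are *ZC3H7B* and *CDKL3* in RefSeq, and no value is given under either name. The other 4 had a median of 0.31, so the sign of the list's median rests on those 2. *CSNK2B*, a regulatory subunit of casein kinase, was at 1.08 ± 0.37 and *MTBP*, which also lies near *MYC*, at 0.65 ± 0.23. The kinase gene *PIM1* was at -1.18 ± 0.41. Of 14 cell cycle genes on other chromosomes 3 rose, *GTSE1* (3.21 ± 0.47), *KIFC1* (2.85 ± 0.41) and *CDC25C* (2.66 ± 0.44), beside 0.865% of all genes, and the median was 1.01. Against spleen and lung alone these 3 were at 2.78, 2.55 and 2.22 and none was called. Only 7 of 21533 genes were called higher against those controls. The call of *CDC25C* was also lost without any 1 blood control or the lung, at 2.43 to 2.69. The list ended with *FANCE* at -0.24 ± 0.25 and *LMNB1* at -0.21 ± 0.34. These lists were chosen with results of these samples known and are not independent evidence of a direction.

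In the cell lines, 8 of the 9 members had a higher CPM in all 3 lines than in DC3F9, where 46.3% of the 18121 tested genes did. *DSCC1* stood at 44.5 CPM in BD, 44.5 CPM in OD and 32.6 CPM in PJ and at 1.61 CPM in DC3F9. *ATAD2* was at 481, 325 and 367 CPM in the lines, in the same order, and at 51.8 CPM in DC3F9. For *MYC* the lines were at 200.2, 127 and 185 CPM and DC3F9 at 34.0 CPM. None of these 3 genes overlapped between the lines and DC3F9, a single library.

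*RAD21* was at 696, 282 and 449 CPM in BD, OD and PJ and 116 CPM in DC3F9, and *ASAP1* at 346, 463 and 350.1 CPM and 145 CPM. *TRIB1* differed between the lines, with 32.9 CPM in BD, 101 CPM in OD and 127 CPM in PJ beside 29.4 CPM in DC3F9. *TATDN1* was at 56.5, 25.3 and 47.5 CPM beside 19.998 CPM. *DERL1* was at 219, 152 and 156 CPM beside 125 CPM. *FBXO32* was the exception to the order, at 24.4 CPM in BD and 23.9 CPM in PJ but 7.07 CPM in OD, below the 16.6 CPM of DC3F9.

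The TMM factors were 1.06 to 1.10 in the lines and 0.794 in DC3F9, and the fit scales by them. The log2FC was 4.18 ± 0.61 for *DSCC1*, 2.44 ± 0.46 for *ATAD2* and 1.86 ± 0.47 for *MYC*, and edgeR's adjusted p was 0.0992, 0.134 and 0.204. It was 1.56 ± 0.64 for *RAD21*, 1.10 ± 0.87 for *TRIB1*, 0.94 ± 0.41 for *ASAP1*, 0.63 ± 0.61 for *TATDN1*, 0.03 ± 0.40 for *DERL1* and -0.32 ± 0.83 for *FBXO32*. With the adjusted p cutoff set at 0.05 and the same fold, edgeR's quasi-likelihood test called 0 of 9 members and 0% of all genes. DESeq2 called *DSCC1*, *ATAD2* and *MYC*, beside 9.91% of all genes, and the same 3 members had an unadjusted p under 0.05 in edgeR, beside 15.4% of all genes. The members' median log2FC was 1.10, beside 0.23 for all genes and 0.85 for 89 further genes of the region.

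The 14 cell cycle genes had a median log2FC of 3.19 in the lines. That of the 16 growth genes was 0.50 and that of the 6 identifiers for genes acting on or with MYC was -0.27 (-0.09 without the 2 whose names conflict). In each line taken alone, the median of the members over DC3F9 was 1.45 in BD, 1.67 in OD and 1.94 in PJ on the log2(CPM + 1) scale. The other placed neighbors had medians of 1.15, 0.68 and 0.78 and all genes 0.30, 0.27 and 0.29. Cell lines and tumors were counted in separate tables, and the sources differ on whether the library kit was the same, so their levels are only set side by side. All 3 lines were above the highest tumor for *DSCC1*, *ATAD2* and *ASAP1*, 2 lines were for *MYC* and *FBXO32* and 1 was for *RAD21*.

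**Figure D2:**
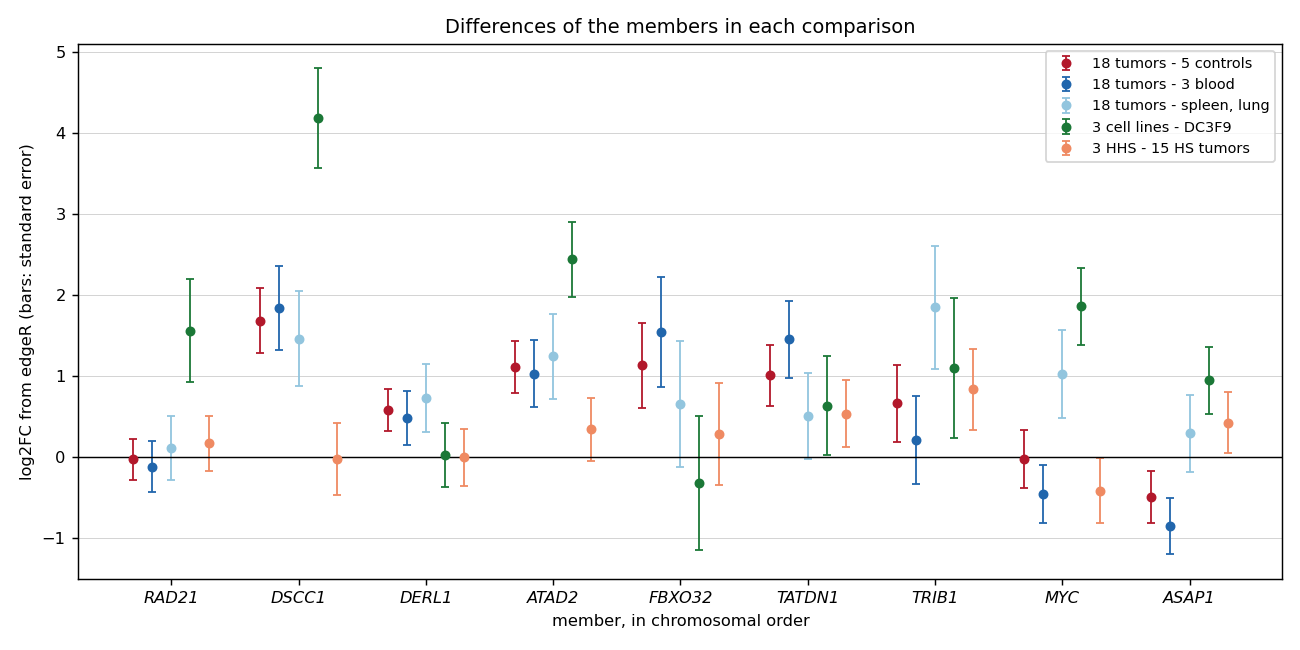
Points are log2FC values from edgeR's quasi-likelihood fits for each member in chromosomal order, with standard errors as bars, for 18 tumors against 5 controls, against 3 blood controls and against spleen and lung, for 3 cell lines against DC3F9 and for 3 HHS against 15 HS tumors. *MYC* has a log2FC of -0.45 against blood and 1.02 against spleen and lung, and *DSCC1* reaches 4.18 in the cell lines.

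The HHS tumors MSU HS 41, MSU HS 46 and MSU HS 53 were compared with the 15 HS tumors. *MYC* was at 57.98, 43.5 and 63.5 CPM in the HHS tumors, inside the HS range of 23.5 to 150.1 CPM. *TRIB1* was at 274, 215 and 145 CPM, above the HS median of 77.9 CPM but within a range that reached 337 CPM. *ATAD2* was at 69.8 and 70.1 CPM in MSU HS 41 and MSU HS 46 and at 197 CPM in MSU HS 53, the highest of all tumors. The ranges overlapped for all 9 members, beside 0.0604% of genes with all HHS tumors higher and 0.0353% with all lower.

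The log2FC of HHS over HS was 0.83 ± 0.50 for *TRIB1*, 0.53 ± 0.41 for *TATDN1*, 0.42 ± 0.38 for *ASAP1* and -0.41 ± 0.41 for *MYC*. The other 5 members lay between -0.02 and 0.34. At an adjusted p under 0.05 and the same fold, edgeR called 0 of 9 members and 0% of 19853 genes, 0 members and 4.01% of genes had an unadjusted p under 0.05, and DESeq2 called 0 members and 0.00504% of genes. The smallest edgeR adjusted p of a member was 0.943. The members' median was 0.29, beside -0.11 for all genes. Without MSU HS 53 it fell to -0.10, beside -0.19 for all genes.

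Whether the members rise together was followed across the 18 tumors, each gene on the log2(CPM + 1) scale. Every other member had a positive correlation with *MYC*. It was largest for *TATDN1*, with Pearson's r = 0.69 (two-sided permutation p = 0.00153) and Spearman's rho = 0.60 (p = 0.0106), and for *ATAD2*, with r = 0.65 (p = 0.00352) and rho = 0.62 (p = 0.00746). *RAD21* had r = 0.58 (p = 0.0116) and rho = 0.43 (p = 0.0773), and *DSCC1* r = 0.47 (p = 0.0478) and rho = 0.34 (p = 0.163). For *DERL1* r was 0.41 (p = 0.0927) and rho 0.37 (p = 0.136), and for *FBXO32* r was 0.36 (p = 0.136) and rho 0.29 (p = 0.247).

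The members next to *MYC* on the chromosome were not the ones that followed it most. *TRIB1* had r = 0.26 (p = 0.304) and rho = 0.33 (p = 0.184), and *ASAP1* r = 0.30 (p = 0.233) and rho = 0.38 (p = 0.117). These p-values come from 100000 permutations for 8 relations and are not adjusted. The test across all genes is the slope of each gene's counts on the *MYC* level in edgeR, in log2 units per log2 unit of *MYC*. The slope was 0.74 ± 0.24 for *TATDN1*, 0.53 ± 0.21 for *ATAD2* and 0.36 ± 0.19 for *RAD21*. After adjustment over 14401 genes, 0 of 8 members and 0% of genes passed 0.05, each member having an adjusted p of 0.990. An unadjusted p under 0.05 with a positive slope was found for 2 members, *TATDN1* and *ATAD2*, and for 2.02% of genes, beside 3.91% in either direction. The median slope of the 8 members was 0.32 and that of all genes 0.01.

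Raw CPM carries the make-up of a library into every pair of genes, and the TMM factor itself had a rho of 0.48 with *MYC* and 0.55 with *ATAD2*. The rho with *MYC* had a median of 0.12 over all genes and 0.37 over the 8 members. With TMM-scaled CPM these medians were 0.01 and 0.31. The rho of *ATAD2* was then 0.56, that of *TATDN1* 0.59 and that of *RAD21* 0.39, while *TRIB1* and *ASAP1* dropped to 0.14 and 0.18. All 8 stayed positive. On raw CPM, the rho of *ATAD2* was above that of 99.2% of the other tested genes, that of *TATDN1* above 99.0% and that of *RAD21* above 91.3%.

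The 2 tumors farthest from the *MYC* median were MSU HS 34, the lowest, and MSU HS 51, the highest. Without them r was 0.69 for *ATAD2*, 0.68 for *RAD21*, 0.56 for *DSCC1* and 0.46 for *FBXO32*, but 0.44 for *TATDN1*, 0.20 for *DERL1*, 0.26 for *ASAP1* and -0.04 for *TRIB1*. By rank, rho was 0.57 for *ATAD2*, 0.44 for *RAD21*, 0.34 for *DSCC1* and 0.32 for *FBXO32*. For *TATDN1* rho was 0.42, for *DERL1* 0.13, for *ASAP1* 0.34 and for *TRIB1* 0.08. The relations of *TRIB1* and *DERL1* with *MYC* thus rested on these tumors. In the 15 HS tumors alone r was 0.80 for *TATDN1* and 0.72 for *ATAD2*.

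**Figure D3:**
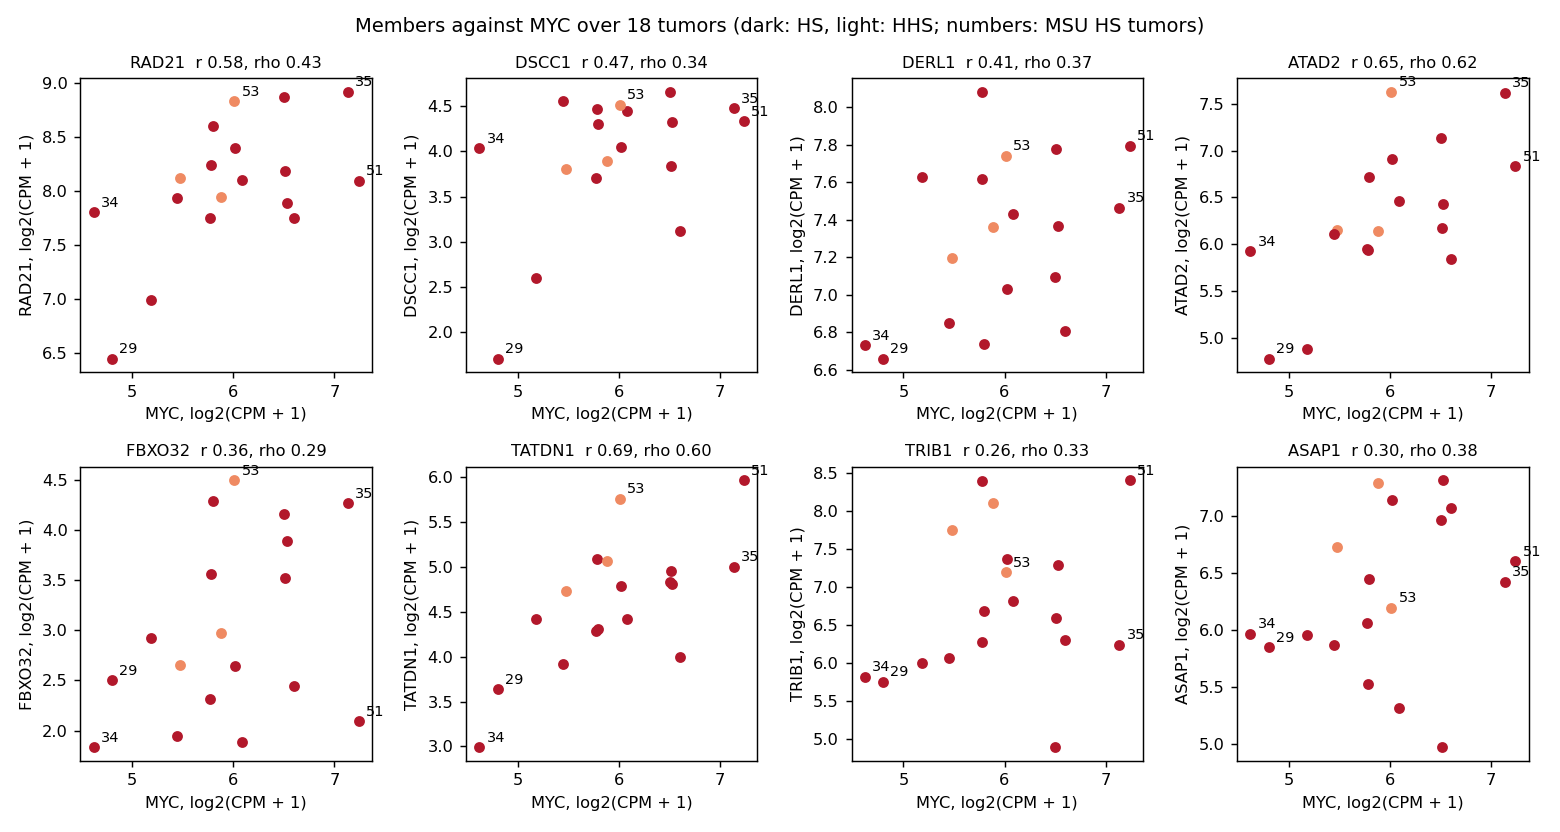
Each panel plots 1 member against *MYC* over the 18 tumors, both as log2(CPM + 1), with HS tumors dark, HHS tumors light and 5 tumors numbered by their MSU HS label. MSU HS 34 and MSU HS 29 sit at the low end of *MYC* and MSU HS 51 and MSU HS 35 at the high end, and r runs from 0.26 for *TRIB1* to 0.69 for *TATDN1*.

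By the rule of likeness to *MYC*, the 5 named genes with the highest rho among 836 named genes of at least 1 CPM were *WDYHV1* (0.78), *CITED2* (0.75), *TAGAP* (0.69), *AGPAT1* (0.69) and *FAM49B* (0.68), over 18 tumors. *WDYHV1* and *FAM49B* lie on chromosome 13 too, 19 protein-coding genes before and 3 after *MYC*. Names cover only 1126 of 32704 identifiers, and 98 of the named genes belong to this region of chromosome 13. The share of the 836 genes that lie there was not computed, so the 2 of 5 does not measure an enrichment of neighbors. *WDYHV1*, an amidase of N-terminal glutamine, ranked 2 among all 13068 genes of that level, most of which have no name here. The remaining 3 lie on chromosomes 1 and 12.

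Between the members themselves, 33 of the 36 pairs had a positive rho, and the median was 0.36, beside 0.05 over all pairs of 14402 genes. With TMM-scaled CPM the medians were 0.27 and 0.00. The closest pair was *RAD21* and *ATAD2*, with rho = 0.85 and r = 0.93. *RAD21* and *DSCC1* had a rho of 0.70 and *DSCC1* and *ATAD2* one of 0.69, so these 3 genes of chromosomes and replication were high and low in much the same tumors. *DERL1* and *TATDN1* formed another close pair, with rho = 0.75. The lowest was *DERL1* and *ASAP1*, at -0.24. All pairs share the 18 libraries and their depth, so these are descriptions.

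The pairs differed in how far they followed the cell cycle genes on other chromosomes. The mean of those 14 genes had a rho of 0.59 with *ATAD2*, 0.58 with *DSCC1*, 0.46 with *RAD21* and 0.41 with *MYC*, but -0.20 with *DERL1* and -0.05 with *TATDN1*. In the slope test on this mean over all genes, 0 of 9 members passed an adjusted p of 0.05, beside 0.215% of 14388 genes, 0.188% with a positive and 0.0278% with a negative slope. Unadjusted p-values were 0.0236 for *DSCC1* (slope 1.05 ± 0.43), 0.0314 for *RAD21* (0.73 ± 0.32) and 0.051 for *ATAD2* (0.83 ± 0.40), and 0.195 or more for the other 6 members. With this mean as a second term, the *MYC* slope of *TATDN1* was 0.90 ± 0.24 and that of *ATAD2* 0.43 ± 0.21. The mean of the 16 growth genes had a rho of 0.77 with *ATAD2*, 0.74 with *DSCC1*, 0.67 with *RAD21* and 0.42 with *MYC*. The rho values with both means are on raw CPM only. With TMM-scaled CPM the median rho between a member and a single cell cycle gene fell from 0.17 to 0.06. Between *MYC* and a single growth gene it fell from 0.17 to 0.05. Lymphocyte markers had a rho of -0.55 with *DERL1*, -0.50 with *FBXO32*, -0.49 with *DSCC1* and -0.45 with *TATDN1*, but 0.43 with *ASAP1* and 0.25 with *TRIB1*. The remaining members lay between -0.36 and -0.26. Other marker lists reached similar sizes. With *DSCC1*, 3 epithelial markers had a rho of 0.54 and 3 striated muscle markers -0.47, and myeloid markers had 0.41 with *ASAP1*. The part of any marker list in these relations was not tested.

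Single tumors were then ranked for each member. MSU HS 53, an HHS tumor of the lung, was among the 3 highest of 18 for 5 of the 9 members, *RAD21*, *DSCC1*, *ATAD2*, *FBXO32* and *TATDN1*, and it was so for 26.4% of all tested genes. MSU HS 35, of the lung, was so for 4 members (*RAD21*, *ATAD2*, *FBXO32* and *MYC*), beside 24.9% of genes. MSU HS 51, of the spleen, was so for another 4 (*DERL1*, *TATDN1*, *TRIB1* and *MYC*), beside 24.3%. No tumor was among the 3 highest for all members, and the tumors high for *MYC* shared no further member with each other. The lead of MSU HS 53 depended on the setting. With TMM-scaled CPM MSU HS 53 and MSU HS 35 had 4 members each and MSU HS 51 had 3. Among the 2 highest, MSU HS 51 had 4 and the other 2 tumors 3 each. Among the 5 highest, MSU HS 53 and MSU HS 35 had 6 each and MSU HS 51 had 5.

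MSU HS 33, of the liver, had 3 members among the 3 highest, *RAD21*, *DSCC1* and *ATAD2*, while it was lowest of all for *TRIB1*. At the low end, MSU HS 29, of the spleen, was among the 3 lowest for 7 members, all but *FBXO32* and *ASAP1*, beside 39.1% of all genes. MSU HS 34, a leg mass, was so for 5 members (*DERL1*, *FBXO32*, *TATDN1*, *TRIB1* and *MYC*), beside 8.99% of genes. MSU HS 27 was so for 4, beside 35.7%. MSU HS 39, of the shoulder, was among the 3 highest for *MYC* and among the 3 lowest for *RAD21*, *DSCC1* and *ATAD2*.

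The same was asked of the whole region, as the deviation of each gene's log2(CPM + 1) from its own median over the 18 tumors. For the 9 members the median deviation ran from -1.12 in MSU HS 29 to 0.56 in MSU HS 53, while for all 14402 genes it stayed between -0.29 and 0.18. A median over few genes varies more than one over many, and that of the 14 cell cycle genes on other chromosomes ran from -0.75 to 0.67, so a wide span is not particular to the members. In MSU HS 34 it was -0.63 beside 0.05 for all genes. In MSU HS 33, MSU HS 51 and MSU HS 35 it was 0.55, 0.43 and 0.30, beside 0.08, 0.14 and 0.18. In MSU HS 29 and MSU HS 34, 0 of the 9 members were above their tumor median, and in MSU HS 35, MSU HS 52 and MSU HS 53, 8 were. With TMM-scaled CPM the highest median of the members was in MSU HS 14, at 0.62. MSU HS 33, MSU HS 53, MSU HS 35 and MSU HS 51 were then at 0.44, 0.34, 0.20 and 0.16. The lowest was still MSU HS 29, at -0.80, and MSU HS 34 was at -0.66. All genes lay between -0.06 and 0.03 on that scale.

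Of the 115 genes in the list for 8q23-24, 98 were placed on chromosome 13 by their RefSeq name, and 75 of these passed the filter on low counts in tumors. They were split at *MYC* into 39 genes toward *ZFPM2*, with 7 members among them, and 35 toward *FBXL6*, with *ASAP1*. The side toward *ZFPM2* had medians of 0.56 in MSU HS 51, 0.51 in MSU HS 35, 0.50 in MSU HS 53 and -0.84 in MSU HS 29. These tumors had been picked out by the members, which also make up part of this side. The side toward *FBXL6* was at -0.10, 0.11, 0.06 and -0.18 in those tumors. Genes above their median numbered 33, 31 and 32 of 39 in the first 3 of these tumors and 6 of 39 in MSU HS 29 and in MSU HS 34. Of all genes, 61.9%, 63.9% and 53.7% were above their median in the first 3, 35.5% in MSU HS 29 and 56.1% in MSU HS 34. In MSU HS 33, where the members were at 0.55, the side toward *ZFPM2* was at 0.23. Placed genes of both sides that are not members had medians of 0.10 in MSU HS 51, 0.39 in MSU HS 35, 0.19 in MSU HS 53 and -0.44 in MSU HS 29. All genes were at 0.14, 0.18, 0.04 and -0.29 there.

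MSU HS 52, a tumor of the lung, showed the other arrangement. Its median deviation was 0.80 over the 35 genes toward *FBXL6*, of which 31 were above their median, and 0.00 over the 39 toward *ZFPM2*, of which 20 were. With TMM-scaled CPM the value of 0.80 became 0.82, and the values toward *ZFPM2* became 0.22 in MSU HS 51, 0.32 in MSU HS 35, 0.34 in MSU HS 53, -0.55 in MSU HS 29 and -0.39 in MSU HS 34. The values toward *FBXL6* became -0.32 in MSU HS 51, -0.04 in MSU HS 35, -0.01 in MSU HS 53, 0.01 in MSU HS 29 and -0.04 in MSU HS 34, so in MSU HS 51 that side then lay farther from 0 than the side toward *ZFPM2*. Both sides of MSU HS 14 moved alike, from 0.02 to 0.38 toward *ZFPM2* and from -0.003 to 0.40 toward *FBXL6*.

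**Figure D4:**
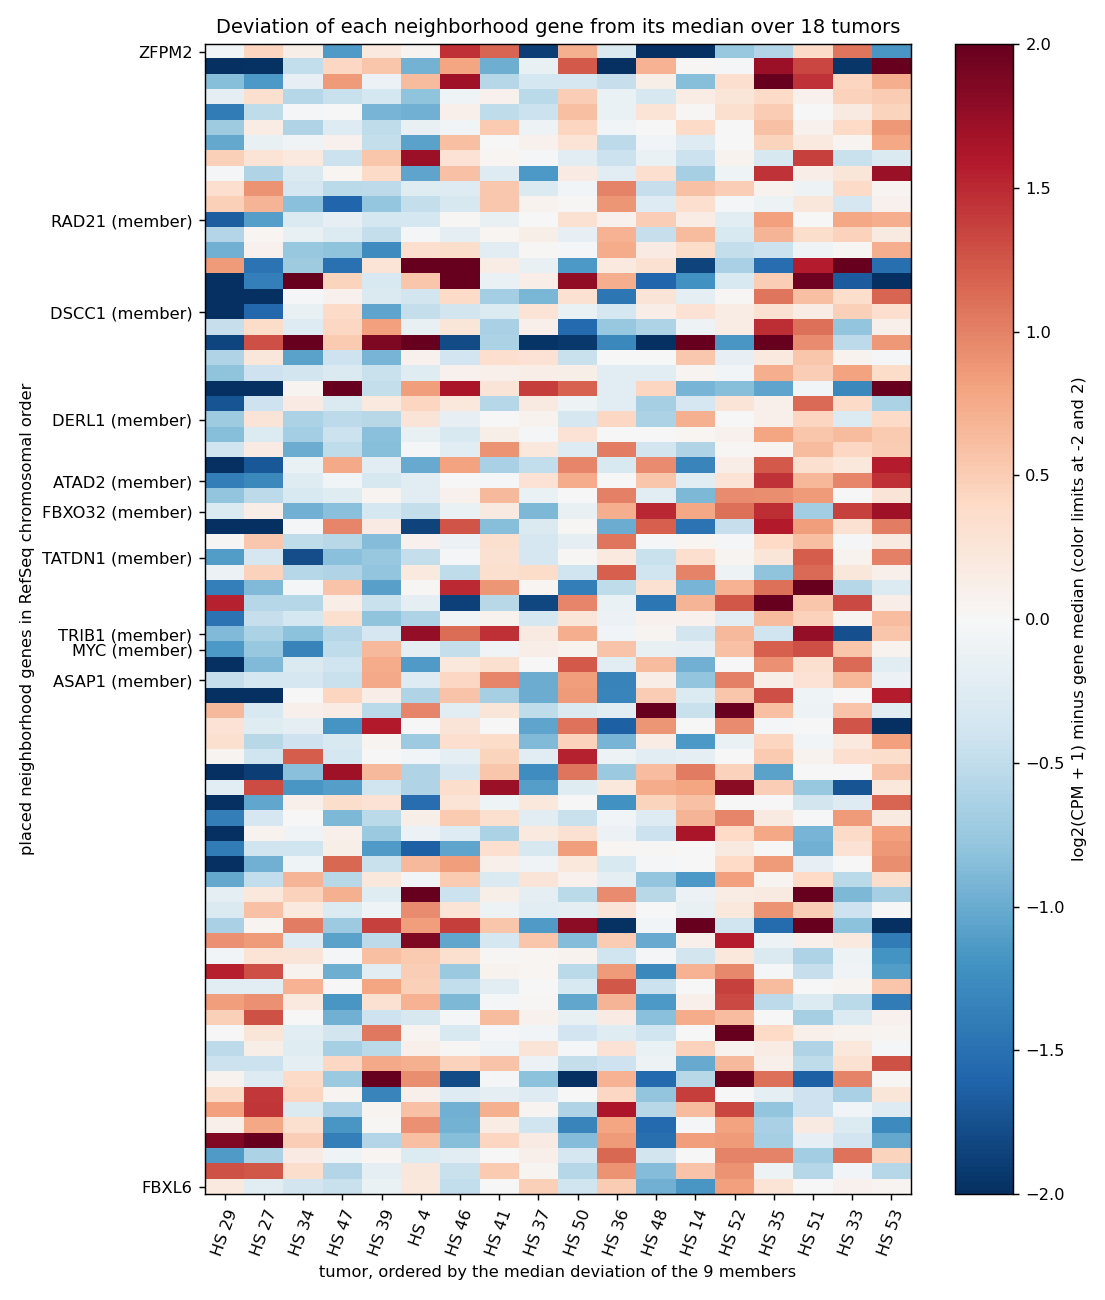
Rows are the 75 placed genes of the region in RefSeq order, with members named, and columns are the 18 tumors ordered by the median deviation of the 9 members. Color gives log2(CPM + 1) minus the gene's median over tumors, with the scale ending at -2 and 2. MSU HS 29 at the left is below the median for most rows above *MYC*, and MSU HS 52 is above it for 31 of the 35 rows below *MYC*.

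**Figure D5:**
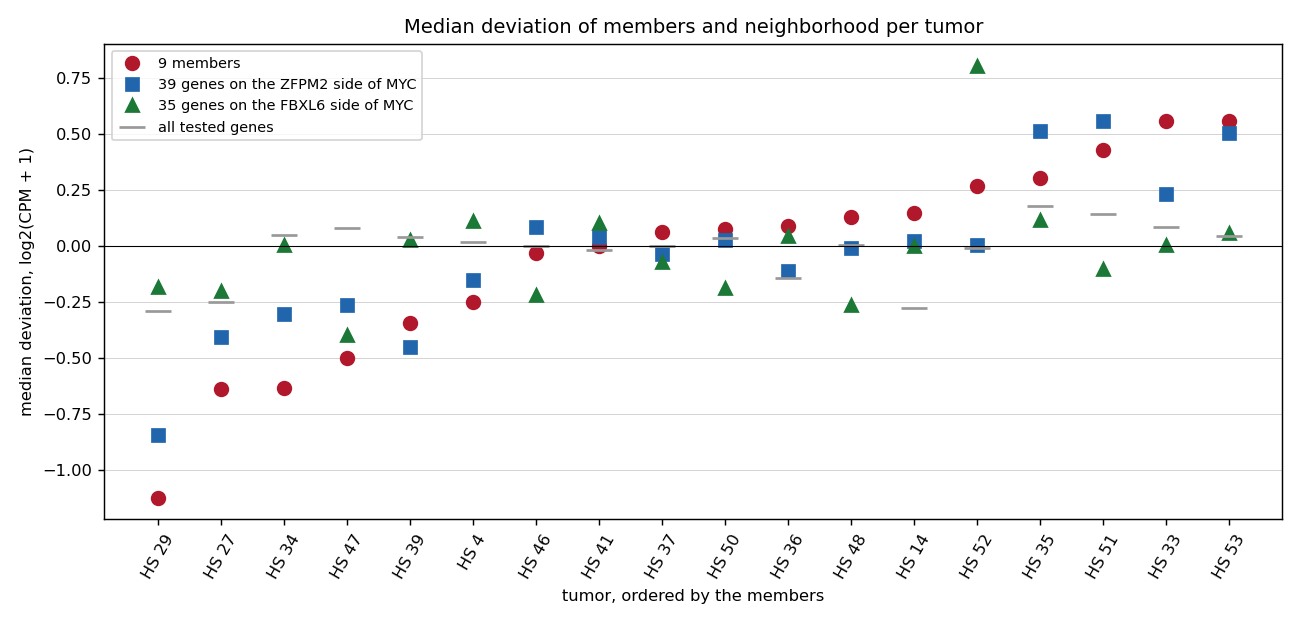
For each tumor, ordered by the members, points give the median deviation in log2(CPM + 1) of the 9 members, of 39 genes on the *ZFPM2* side of *MYC*, of 35 on the *FBXL6* side and of all 14402 tested genes. The members span -1.12 to 0.56 and all genes -0.29 to 0.18 (the 14 cell cycle genes, not drawn, span -0.75 to 0.67), and the *FBXL6* side stands at 0.80 in MSU HS 52.

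Over the 75 placed genes, likeness between 2 genes fell with the number of protein-coding genes between them. The median rho was 0.24 for 171 pairs at most 5 genes apart, 0.21 for 495 pairs 6 to 20 apart, 0.12 for 984 pairs 21 to 60 apart and -0.02 for 1125 pairs farther apart. With TMM-scaled CPM the medians were 0.18, 0.16, 0.11 and 0.01. Over all pairs of tested genes the median was 0.05 on raw CPM and 0.00 with TMM. The median rho between a member and another placed gene was 0.19.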

How the data were processed

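Ensembl identifiers were paired with symbols through the study's supplementary tables. As read here, these gave names to 1126 of 32704 identifiers (1025 by dog symbol, 101 by human homolog). All listed genes with a RefSeq chromosome lie on chromosomes 1 and 10 to 13. The gene lists and named genes thus draw on a part of the genome only. Members and gene lists were chosen with earlier results of these data known. The authors trimmed reads with cutadapt 3.7, aligned them with STAR 2.7.10a to CanFam3.1, counted reads per gene with HTSeq 2.0.0 and deposited the raw counts, as the submitters' processing notes and the paper's methods give it. The annotation release and the strand option of the counting are not given in the sources used here, so overlapping and antisense genes may share reads. The submitters' processing notes also name FastQC 0.11.9 and DESeq2 1.20. The supplementary fold changes and p-values of the authors were not used.

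From the deposited counts, CPM was computed on raw totals with a pseudocount of 1 on the log2 scale. Differences and slopes were fitted with R 4.3.3 and edgeR 4.0.16 (TMM, filterByExpr, quasi-likelihood test, Benjamini-Hochberg adjustment over all tested genes). The *MYC* level in the slope fits was log2 CPM with a prior count of 2. DESeq2 1.42.0 and limma 3.58.1 served as alternatives, and other filters, size factors, controls and cutoffs were tried. Permutations used numpy 2.4.6, and ranks scipy 1.17.1, under Python 3.11.15. The fits were tested on simulated counts with known changes.

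Genes named are every paired member, the 2 highest and 2 lowest log2FC of each further gene list in tumors against controls, and the 5 named genes most like *MYC* by Spearman's rho. *MRPL13*, *DENND3* and *CDC25C* were added after their values were seen, and marker lists are given as sums only and *EP300* without a value, which departs from the rule. The 3 cell lines stand in for replicates of each other, and DC3F9 is 1 library whose spread is assumed to be theirs. Nothing in the labels shows whether libraries of a group share a dog, so p-values measure the spread between these samples. No libraries agreed within sampling noise. The slope on the cell cycle genes, the split at *MYC* and the TMM-scaled pairs were added after results had been seen.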

Additional observations from a re-analysis of the deposited data

Results flagged for a closer look

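*DSCC1* in blood control 35779 lay apart from the other 4 of the 5 controls, at 1.70 CPM beside 5.41 to 7.81 CPM. Its gap to the nearest control was 73.1% of the range of the 5 controls on the log2(CPM + 1) scale. Chance flags about 1 in 20 groups, 9 members were looked at, and without this control the *DSCC1* log2FC was 1.43.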

How the results depend on the processing

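No paired analysis was possible because the replicate numbers only follow the order of the samples. The count of members called, 0 by edgeR in each comparison, became 1 in tumors against controls with DESeq2 and 1 at an adjusted p under 0.05, 3 in the cell lines with DESeq2 and 3 at an unadjusted p under 0.05, and 2 in the slopes on *MYC* at an unadjusted p under 0.05. In tumors against controls DESeq2 called 1721 genes and edgeR 539, and DESeq2 moved the median of all genes to -0.12. The cause of the turns given here was not tested.

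In tumors against controls, directions turned with the controls used. Against spleen and lung alone the log2FC was 1.02 for *MYC*, 0.11 for *RAD21*, 0.29 for *ASAP1*, -0.23 for *XRCC6*, 0.073 for *SRPK1*, 1.00 for *PIM1* and 0.93 for *LMNB1*, and against blood alone it was 1.26 for *ANGPT1*. With the liver added it was 0.17 for *MYC* and 0.022 for *RAD21*, and with HHS tumors only 0.087 for *RAD21* and -0.13 for *XRCC6*. *XRCC6* was at -0.013 with HS tumors only, -0.073 with DESeq2, -0.073 with its size factors in edgeR and -0.080 with a filter of 1 CPM. Leaving out 1 control at a time gave -0.28 to 0.21 for *MYC*, -0.082 to 0.095 for *RAD21*, -0.14 to 0.12 for *XRCC6* and -0.39 to 0.11 for *LMNB1*. *MYC* turned positive without blood control 35780 or 35116.

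In the cell lines *DERL1* was at -0.014 with DESeq2 and -0.014 with its size factors, and leaving out 1 line gave -0.16 to 0.11 for *DERL1* and -0.57 to 0.056 for *FBXO32*. In HHS against HS tumors *DERL1* was at 0.026 with DESeq2, 0.026 with its size factors, 0.028 with no filter and 0.00086 with a filter of 1 CPM, and *DSCC1* at 0.020, 0.020 and 0.0096 in the first 3 of these and 0.010 without MSU HS 37. Leaving out 1 HHS tumor gave -0.22 to 0.60 for *ATAD2*, -0.10 to 0.10 for *DERL1*, -0.21 to 0.11 for *DSCC1*, -0.054 to 0.30 for *RAD21* and -0.47 to 0.64 for *FBXO32*, the lowest each time without MSU HS 53. The slope of *TRIB1* on *MYC* was -0.47 without the 2 farthest tumors, and that of *ASAP1* on the cell cycle genes 0.00046 with HS tumors only. The comparisons rest on 5 controls, 3 lines, 3 HHS tumors and 1 DC3F9 library. Over the 18 tumors, log2 total counts had r = 0.64 with *DSCC1*, 0.53 with *RAD21*, 0.51 with *ATAD2* and 0.51 with *MYC*. By rank these were 0.23, 0.09, 0.27 and 0.47, and r was 0.08 to 0.37 for the remaining members. The part of depth was not tested.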
